A study of Mus musculus with 12 samples.

Results

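The genes described are 10 immune checkpoint receptors and ligands, measured in mouse spleen on 12 Affymetrix arrays. They were chosen by name and are Cd274, Pdcd1lg2, Pdcd1, Ctla4, Cd80, Cd86, Havcr2, Lag3, Tigit and Btla. All 10 were found among the 19938 genes that had a probe set naming 1 gene, and where a gene had several probe sets the brightest on average was used. All animals were C57BL/6 mice, and the labels place 4 arrays in each of 3 groups. The first holds mice described as Toll-like receptor (TLR)-deficient that underwent colon ascendens stent peritonitis, in which gut bacteria leak through a stent into the abdomen. Their titles carry the name Trifxmyd, without stating the alleles; Trif and MyD88 are adaptor proteins of TLR signalling. The second group holds wildtype mice after the same operation and the third wildtype mice without treatment. The study has no untreated TLR-deficient group, and age, sex and the time from operation to sampling are not given in the labels. Replicates are called biological in the titles, and nothing further says how the animals were kept or sampled, so p-values measure the spread between these samples.

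Immune checkpoints are receptor and ligand pairs that set how strongly T cells respond once their antigen receptor is engaged. PD-1, encoded by Pdcd1, sits on activated T cells and dampens signalling when it binds PD-L1 (Cd274) or PD-L2 (Pdcd1lg2) on antigen-presenting and other cells. CTLA-4 competes with the activating receptor CD28 for CD80 and CD86, the B7 ligands of dendritic cells, macrophages and B cells. Tim-3 (Havcr2), LAG-3, TIGIT and BTLA are further inhibitory receptors of lymphocytes, and Tim-3 is also found on dendritic cells and macrophages. Interferon-gamma, acting through Jak2 and Irf1 among others, is a well-known inducer of PD-L1. In sepsis, PD-1 and its ligands are studied as part of the immune suppression that can follow the first inflammation.

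The promoters of 5 members are shown because their genes differed most between arrays or ran in opposite directions, and because Cd274 and Pdcd1lg2 are next to each other among the protein-coding genes of the mouse genome. Each sequence covers the 250 bases before the annotated start, on the strand of the gene, from RefSeq in build GRCm38.p6. Promoters were found for 8 of the 10 members, and Cd86 and Lag3 had no entry. Capitals mark matches on either strand to 4 motifs: GAAA, any 2 bases and GAAA (the core of the interferon-stimulated response element), TTCNNNGAA (the gamma-activated site), GGG, any 5 bases and CC (a loose form of the kappaB site), and TGANTCA (the AP-1 site).
Cd274 promoter, chr19:29367188-29367437, plus strand: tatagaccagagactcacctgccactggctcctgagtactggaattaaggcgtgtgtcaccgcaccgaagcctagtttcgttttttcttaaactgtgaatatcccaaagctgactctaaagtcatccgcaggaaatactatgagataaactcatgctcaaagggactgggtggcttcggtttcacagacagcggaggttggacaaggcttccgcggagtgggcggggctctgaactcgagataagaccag
Pdcd1lg2 promoter, chr19:29410669-29410918, plus strand: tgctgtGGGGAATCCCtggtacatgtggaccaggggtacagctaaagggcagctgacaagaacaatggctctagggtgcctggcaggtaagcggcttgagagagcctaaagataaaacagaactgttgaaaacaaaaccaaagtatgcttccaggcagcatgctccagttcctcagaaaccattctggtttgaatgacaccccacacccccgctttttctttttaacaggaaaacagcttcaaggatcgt
Ctla4 promoter, chr1:60908775-60909024, plus strand: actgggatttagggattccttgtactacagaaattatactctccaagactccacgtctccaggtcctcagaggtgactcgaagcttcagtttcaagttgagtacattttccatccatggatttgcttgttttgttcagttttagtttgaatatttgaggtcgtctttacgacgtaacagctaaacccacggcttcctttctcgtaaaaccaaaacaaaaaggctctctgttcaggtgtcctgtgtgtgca
Cd80 promoter, chr16:38458683-38458932, plus strand: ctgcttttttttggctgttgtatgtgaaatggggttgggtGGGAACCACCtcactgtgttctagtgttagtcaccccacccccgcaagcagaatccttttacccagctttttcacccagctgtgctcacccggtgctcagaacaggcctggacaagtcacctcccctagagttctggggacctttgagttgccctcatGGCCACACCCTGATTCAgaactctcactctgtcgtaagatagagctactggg
Havcr2 promoter, chr11:46454681-46454930, plus strand: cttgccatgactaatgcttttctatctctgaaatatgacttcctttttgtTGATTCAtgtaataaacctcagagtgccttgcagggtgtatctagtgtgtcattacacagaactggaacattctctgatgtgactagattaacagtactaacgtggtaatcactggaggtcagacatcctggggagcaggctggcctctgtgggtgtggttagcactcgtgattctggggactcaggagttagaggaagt
The loose kappaB motif was found in the Pdcd1lg2 window, as GGGGAATCCC starting 244 bases before the start. It was found at 2 places in the Cd80 window, starting 210 and 52 bases before the start, the latter directly followed by an AP-1 match at 42 bases. The Havcr2 window holds an AP-1 match at 200 bases. No match to the 4 motifs was in the windows of Cd274, Ctla4, Pdcd1, Tigit or Btla, which says only that these letters are not there. Among all 32851 promoter windows of this length, 45.8% held the loose kappaB motif, 6.75% the AP-1 motif, 7.02% the gamma-activated site and 2.98% the response element core. A match is a description of letters and not a bound site.

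The arrays did not sort by label. Over genes, which are not independent replicates, Pearson correlations between pairs of 11 arrays ran from 0.956 to 0.991. The exception was septic wildtype replicate 2 (title M10), with correlations of 0.765 to 0.809, and its log2 values had a standard deviation of 1.21 against 1.91 to 2.07 on the others. By highest correlation, 5 of 12 arrays were nearest to an array of their own label. All 12 were nearest to an array of their own title-number set, M5 to M7 with M16, M8 to M11, or M12 to M15. These sets were drawn up with the likeness of the arrays known, are not groups of the labels, and are described here without tests. The set M5 to M7 with M16 holds septic TLR-deficient replicates 1 to 3 and untreated replicate 4. M8 to M11 holds septic TLR-deficient replicate 4 and septic wildtype replicates 1 to 3. M12 to M15 holds septic wildtype replicate 4 and untreated replicates 1 to 3. Xist, expressed in female cells, lay between 3.73 and 4.33 on M12 to M15 and between 8.94 and 10.94 on the other 8 arrays. The Y-linked Eif2s3y lay between 7.21 and 7.95 on M12 to M15 and between 2.48 and 4.50 elsewhere. Myd88 lay between 8.62 and 9.64 on the arrays labelled septic TLR-deficient, 6.48 and 9.20 on septic wildtype and 8.87 and 9.75 on untreated arrays. Ticam1, which encodes Trif, lay between 5.80 and 5.93, 5.64 and 6.22, and 5.76 and 6.57 in the same order. The alleles are not stated, so these values check no label. Tlx1, a transcription factor needed to form the spleen, lay between 5.27 and 7.18 on the 12 arrays, and with no detection calls used its level does not settle whether it was expressed. M8, M12 and M16, the replicate 4 of each label, lay with arrays of another label, as they would if the labels were shifted by 1 title number. Whether the labels are shifted was not tested and cannot be settled from these values, so each labelled difference below holds only if its labels are right.

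The PD-1 ligand Cd274, which restrains T cells that carry PD-1, was among the members that varied most. Its log2 values on the arrays labelled septic TLR-deficient were 10.26, 10.20, 9.20 and 8.08 for replicates 1 to 4. On the arrays labelled septic wildtype they were 7.92, 7.27, 7.45 and 9.09, and on untreated arrays 8.45, 8.91, 9.26 and 10.54. The 4th replicate of each label lay away from its own group, and every pair of labelled groups overlapped. The 4 lowest arrays were M8 to M11, at 7.27 to 8.08, and the highest was M16, labelled untreated. Between the septic groups the log2 difference, TLR-deficient minus wildtype, was 1.50 (SE 0.56, 95% interval 0.30 to 2.70, adjusted p = 0.590 in limma). Septic wildtype minus untreated was -1.36 (SE 0.56, adjusted p = 0.439 in limma). Within M12 to M15 the single septic wildtype array stood 0.22 above the mean of 3 untreated arrays, the opposite direction. Within M8 to M11 the single TLR-deficient array stood 0.54 above the mean of the 3 septic wildtype arrays.

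Pdcd1lg2, the gene next to Cd274 and the source of the PD-L2 ligand, varied less. It stood at 6.91, 6.99, 5.88 and 6.50 on the septic TLR-deficient arrays, at 6.05, 4.67, 5.85 and 6.33 on septic wildtype and at 5.92, 6.53, 6.90 and 7.13 on untreated arrays. The lowest of the 12 values, 4.67, came from septic wildtype replicate 2. The septic groups differed by 0.85 (SE 0.38) and by 0.50 without that array, and septic wildtype minus untreated was -0.89 (SE 0.38), or -0.54 without it. The title-number sets overlapped for Pdcd1lg2, at 5.88 to 7.13 on M5 to M7 with M16, 4.67 to 6.50 on M8 to M11 and 5.92 to 6.90 on M12 to M15.

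The receptor Pdcd1 separated 4 arrays from the rest. The septic TLR-deficient arrays gave 6.81, 6.98, 6.83 and 5.55, with replicate 4 apart from the rest. It lay at 5.66, 5.69, 5.31 and 5.13 on septic wildtype arrays. On untreated arrays it was 4.9997, 5.55, 5.74 and, on replicate 4, 7.12. Thus M5 to M7 with M16 lay at 6.81 to 7.12 and the other 8 arrays at 4.9997 to 5.74, with no overlap. The septic groups differed by 1.10 (SE 0.42, 95% interval 0.20 to 1.99, adjusted p = 0.590 in limma). Within M8 to M11 the difference between the same labels was -0.0063, from 1 array against 3. Septic TLR-deficient minus untreated was 0.69 (SE 0.42) with all arrays and 1.11 without untreated replicate 4.

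**Figure D1:**
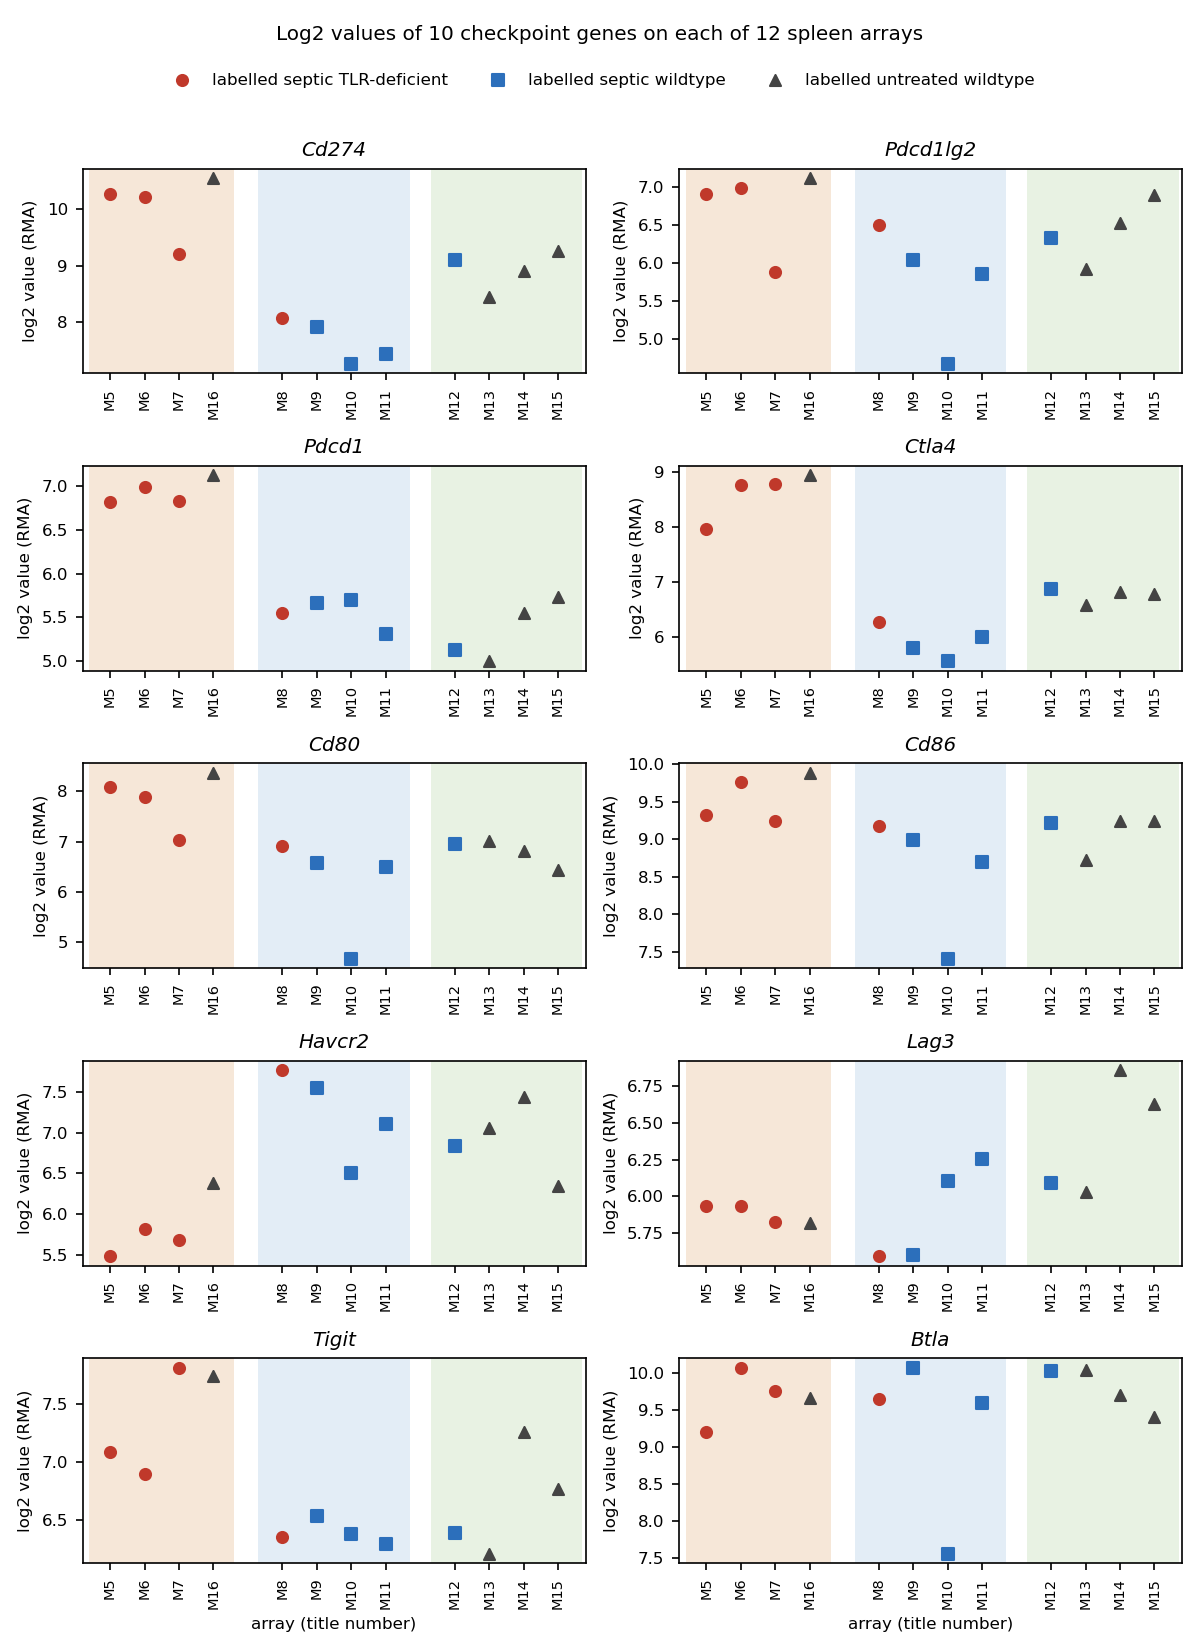
Log2 values of each checkpoint gene on the 12 arrays, placed by title number, with colour and marker for the labelled group and shading for the title-number sets M5 to M7 with M16, M8 to M11 and M12 to M15. Pdcd1, Ctla4, Cd80 and Cd86 stood higher on M5 to M7 and M16 than on all 8 other arrays, and each panel has its own scale that does not start at 0.

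Ctla4, the inhibitory receptor that competes for the B7 ligands, showed the largest log2 difference among the members between the septic groups. Its values were 7.97, 8.76, 8.80 and 6.26 on the septic TLR-deficient arrays. They were 5.79, 5.55, 5.99 and 6.86 on septic wildtype arrays and 6.57, 6.82, 6.78 and 8.95 on untreated arrays. The 3 title-number sets did not overlap for this gene, with 7.97 to 8.95 on M5 to M7 with M16, 6.57 to 6.86 on M12 to M15 and 5.55 to 6.26 on M8 to M11. As labelled, the groups did overlap. The difference between the septic groups was 1.90 (SE 0.60, 95% interval 0.60 to 3.20, adjusted p = 0.590 in limma), which ranked 115th by p among all genes. Leaving out single arrays moved it between 1.62 and 2.46. Septic wildtype minus untreated was -1.23 (SE 0.60), and -0.68 without untreated replicate 4.

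Both B7 ligands stood highest on the same 4 arrays. Cd80, which binds CTLA-4 more tightly than Cd86 does, was at 8.09, 7.89, 7.03 and 6.92 on septic TLR-deficient arrays. It was at 6.57, 4.68, 6.50 and 6.95 on septic wildtype and at 7.02, 6.81, 6.43 and 8.37 on untreated arrays. The margin between the sets was narrow, since the lowest of M5 to M7 with M16 was 7.03 and the highest of the other 8 was 7.02. The second Cd80 probe set gave 6.52 to 7.63 on M5 to M7 with M16 and 5.16 to 6.12 on the other 8 arrays. The septic groups differed by 1.30 for Cd80 (SE 0.51, adjusted p = 0.590 in limma) and by 0.80 without septic wildtype replicate 2. Cd86 was at 9.32, 9.77, 9.25 and 9.17 on septic TLR-deficient, 8.99, 7.40, 8.70 and 9.21 on septic wildtype and 8.72, 9.24, 9.24 and 9.89 on untreated arrays. For Cd86 too the sets were separated by a small margin, 9.247 against 9.244. Its difference between the septic groups was 0.80 (SE 0.36), and 0.41 without septic wildtype replicate 2.

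Havcr2, which encodes Tim-3, ran the other way. It was at 5.48, 5.82, 5.69 and 7.77 on septic TLR-deficient arrays, at 7.55, 6.50, 7.10 and 6.84 on septic wildtype and at 7.05, 7.44, 6.35 and 6.38 on untreated arrays. Replicates 1 to 3 of the TLR-deficient label were the 3 lowest arrays and replicate 4 was the highest. On M5 to M7 with M16 Havcr2 lay between 5.48 and 6.38, and on the other 8 arrays between 6.35 and 7.77; M16 at 6.38 passed untreated replicate 3 at 6.35, so the sets just overlapped. The septic groups differed by -0.81 (SE 0.45, adjusted p = 0.590 in limma), and by -1.34 without septic TLR-deficient replicate 4. Within M8 to M11 the single TLR-deficient array stood 0.72 above the mean of the 3 septic wildtype arrays.

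Lag3, a receptor for MHC class II, spanned 1.27 over the 12 arrays, the smallest span of the members. It was at 5.94, 5.93, 5.82 and 5.59 on septic TLR-deficient, 5.60, 6.10, 6.26 and 6.09 on septic wildtype and 6.03, 6.86, 6.63 and 5.82 on untreated arrays. Septic TLR-deficient minus untreated was -0.52 (SE 0.24, 95% interval -1.04 to 0.01, adjusted p = 0.99996 in limma), with overlap between the groups. Tigit, which binds the nectin-like protein Pvr, was at 7.09, 6.89, 7.82 and 6.35 on septic TLR-deficient arrays. It was at 6.53, 6.37, 6.29 and 6.38 on septic wildtype and 6.20, 7.26, 6.77 and 7.75 on untreated arrays. The highest arrays were M7 and M16, under different labels, while M8 to M12 all lay between 6.29 and 6.53. Btla, the receptor for the TNF receptor family member Tnfrsf14, was at 9.19, 10.07, 9.75 and 9.65 on septic TLR-deficient arrays. It was at 10.06, 7.56, 9.59 and 10.02 on septic wildtype and 10.04, 9.69, 9.40 and 9.66 on untreated arrays. Apart from 7.56 on septic wildtype replicate 2, Btla stayed between 9.19 and 10.07. Its difference between the septic groups was 0.36 with all arrays and -0.23 without that array.

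Comparing the septic groups by label sets spleen levels after peritonitis in TLR-deficient mice against those in wildtype mice. Without untreated TLR-deficient mice, a different response and a different level before the operation cannot be told apart. Of the 10 members, 8 had a higher mean on the TLR-deficient label and 2, Havcr2 and Lag3, a lower mean, with a median difference of 0.82 against -0.06 over all genes. None of the 10 passed an adjusted p of 0.05 in limma, and neither did any of the 19938 genes (0%). At an unadjusted p under 0.05 there were 6 of 10, Cd274, Pdcd1lg2, Pdcd1, Ctla4, Cd80 and Cd86, where 6.65% of all genes had such a p. In 0 of 10 did the labelled groups not overlap, against 3.8% of all genes. The 6 became 2, Pdcd1 and Ctla4, without septic wildtype replicate 2, where the share over all genes was 6.2%. They became 1, Ctla4, without septic TLR-deficient replicate 1 (3.04% of all genes) or 2 (4.51%), and 3 without septic wildtype replicate 3 (10.4%).

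**Figure D2:**
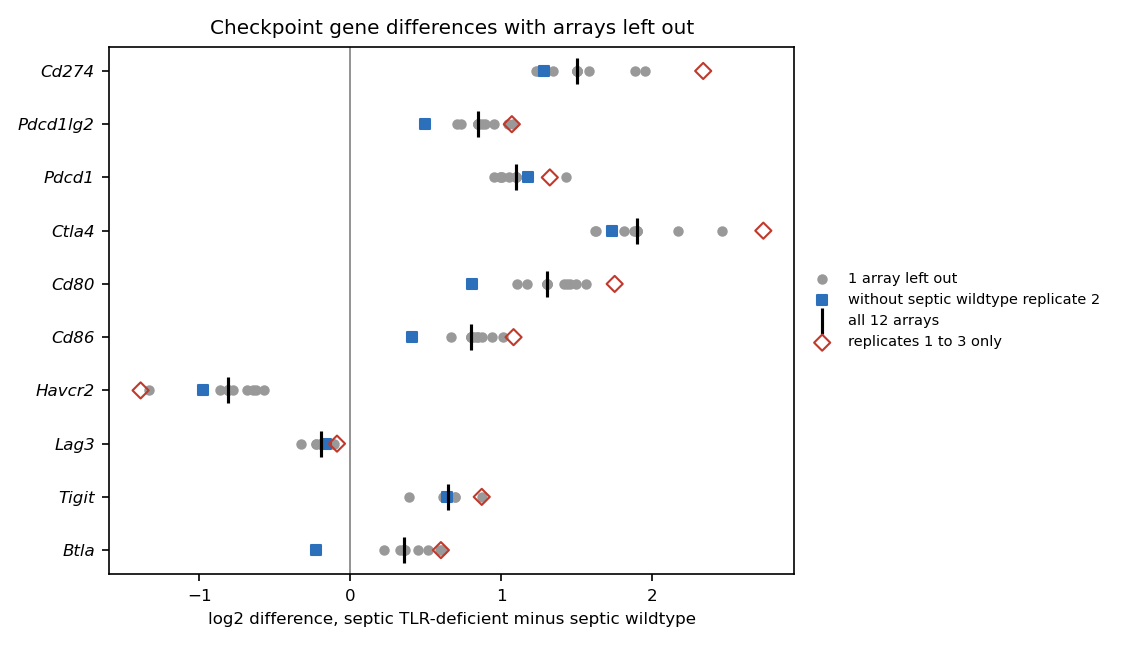
Log2 difference between septic TLR-deficient and septic wildtype labels (horizontal axis) for each member (vertical axis), with all 12 arrays, with each array left out in turn, without septic wildtype replicate 2 and with replicates 1 to 3 only. Ctla4 stayed between 1.62 and 2.46 with 1 array left out, and Btla went from 0.36 to -0.23 without septic wildtype replicate 2.

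Septic wildtype against untreated wildtype compares mice with and without the operation, with TLR signalling intact. The groups differed in Xist too. It lay at 8.94 to 10.94 on septic wildtype replicates 1 to 3 and at 4.33 on replicate 4. On untreated replicates 1 to 3 it lay at 3.73 to 4.33, and at 9.91 on replicate 4. The parts of sex and operation in this comparison were not tested. As labelled, 9 of 10 members had a lower mean on the septic label and Havcr2 a higher one (0.19, SE 0.45). The median was -0.65 against 0.07 over all genes. A further quantile normalization turned Btla, leaving 8 lower and 2 higher. No member and no gene (0%) passed an adjusted p of 0.05 in limma. Cd274 and Pdcd1lg2 had an unadjusted p under 0.05, as did 8.81% of all genes, and 0 of 10 members had groups that did not overlap, against 6.42%. The count of 2 fell to 0 without septic wildtype replicate 2, where 5.45% of all genes had such a p, and to 0 without untreated replicate 4 (4.3%). It was 1 without septic wildtype replicate 1 (11.2% of all genes) or 3 (15.2%) or untreated replicate 2 (4.25%). It was 5 without septic wildtype replicate 4 (16% of all genes) or untreated replicate 1 (8.21%).

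Septic TLR-deficient against untreated wildtype changes genotype and operation together. Xist lay at 9.71 to 10.84 on the septic TLR-deficient arrays, above the 3.73 to 4.33 of untreated replicates 1 to 3. Means were higher for 6 members and lower for 4 (8 and 2 after a further quantile normalization), with a median of 0.07 against 0.01 over all genes. Again 0 members and 0 genes (0%) passed in limma, 0 members against 1.88% of genes had an unadjusted p under 0.05, and 0 members against 3.4% of genes had groups without overlap. Without septic TLR-deficient replicate 4 there were 3 members at an unadjusted p under 0.05, Pdcd1, Ctla4 and Havcr2 (2.89% of all genes). Without untreated replicate 4 there were 3, Pdcd1, Ctla4 and Lag3 (3.63%). There was 1, Lag3, without septic wildtype replicate 1 (1.77%) or 2 (6.14%) or untreated replicate 1 (1.57%). The 3 comparisons share their groups pairwise, so a low value on the septic wildtype arrays enters the first and second with opposite signs.

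**Figure D3:**
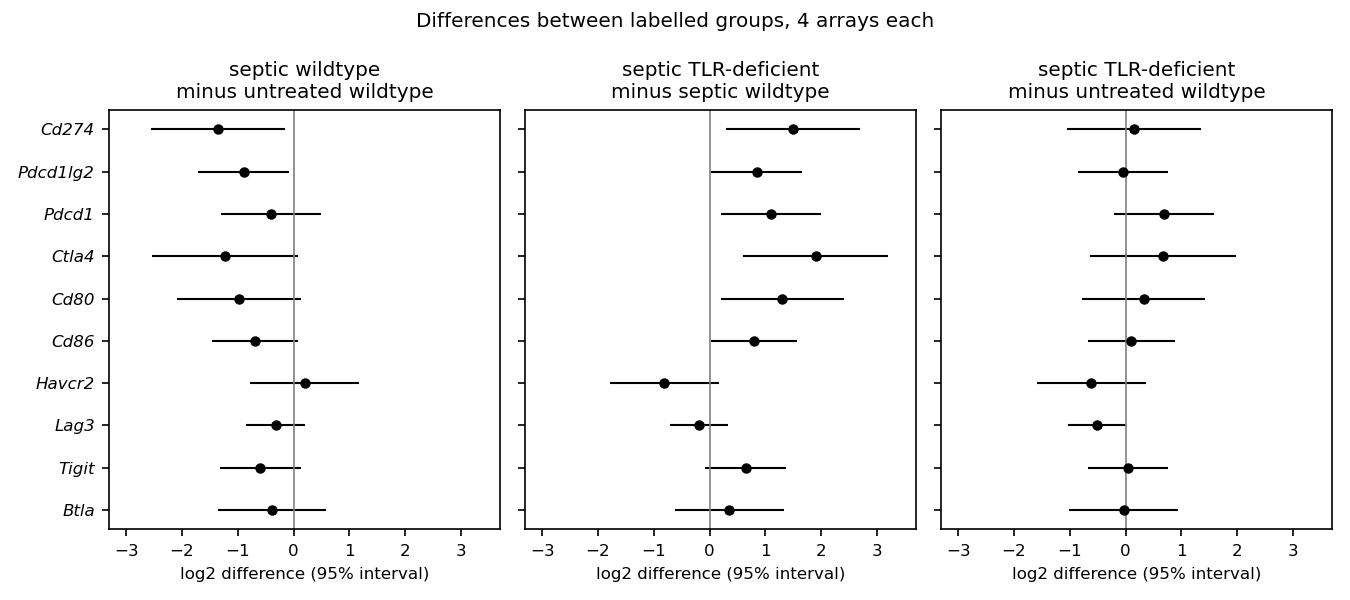
Log2 differences of the 10 checkpoint genes in the 3 comparisons of labelled groups, with 95% intervals from the limma fit over 12 arrays. Between the septic groups Ctla4 is farthest to the right at 1.90, and against untreated arrays the septic TLR-deficient differences lie between -0.62 and 0.69.

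An alternative chosen after seeing the data kept replicates 1 to 3 of each label. It leaves out M8, M12 and M16, the arrays that lay with another label's arrays, and so favours calls. In limma it called 3 members between the septic groups, Ctla4 (2.74, adjusted p = 0.0026), Cd274 (2.34, adjusted p = 0.015) and Pdcd1 (1.32, adjusted p = 0.047), where 0.707% of all genes were called. Against untreated arrays it called Ctla4 (1.79, adjusted p = 0.038; 0.166% of all genes) on the TLR-deficient label and 0 members (0.0451% of all genes) on the septic wildtype label. Leaving out septic wildtype replicate 2 as well added Havcr2 between the septic groups, at -1.66 (adjusted p = 0.013 in limma), with 5.03% of all genes called. It then called Pdcd1, Ctla4 and Havcr2 for septic TLR-deficient against untreated (3.39% of all genes) and 0 members for septic wildtype against untreated (0.0953%).

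By title-number set, 4 of 10 members, Pdcd1, Ctla4, Cd80 and Cd86, were higher on all of M5 to M7 and M16 than on the other 8 arrays, as were 1.72% of all genes. None of the 10 was lower on all 4, against 1.85% of all genes. On M8 to M11, 2 of 10 members, Cd274 and Ctla4, were lower than on all other arrays (2.12% of all genes) and 0 were higher (1.18%). On M12 to M15, 0 of 10 stood apart in either direction (1.57%). Differences between labels inside a set rest on 1 array against 3. Their sign was that of the labelled comparison in 7 of 10 members within M8 to M11, in 4 of 10 within M12 to M15 and in 2 of 10 within M5 to M7 with M16. Their median size was 0.55 within M8 to M11 against 0.83 for the labelled groups, 0.21 within M12 to M15 against 0.65, and 0.46 within M5 to M7 with M16 against 0.23.

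The list of other co-inhibition and co-stimulation genes has 31 members, all measured. Averaged over the list, log2 deviations from each gene's mean over the 12 arrays stood at -0.70 on septic wildtype replicate 2. They lay at -0.04 to 0.06 on the other septic wildtype arrays, inside the -0.11 to 0.18 of the septic TLR-deficient arrays. Between the septic groups 20 of the 31 genes were higher and 11 lower on the TLR-deficient label, with a median of 0.08. Of these genes 0 passed in limma and 5 (16.1%) had an unadjusted p under 0.05, against 6.65% of all genes. Tnfrsf9 (4-1BB), an activating receptor of T cells, had the largest difference at 1.87, followed by Lgals9, a galectin ligand of Tim-3, at 1.15. Lgals9 had a standard deviation of 1.73 on septic wildtype arrays, against 0.53 on septic TLR-deficient and 0.72 on untreated arrays. The lowest differences were those of Ptpn6, the phosphatase SHP-1, at -0.69 and Icosl, the ligand of ICOS, at -0.54. For septic wildtype minus untreated, 21 of 31 were lower with a median of -0.18, and 6 (19.4%) had an unadjusted p under 0.05 against 8.81% of all genes. The lowest were Lgals9 at -1.65 and Tnfrsf9 at -1.28. The highest there were Cd226, the activating counterpart of TIGIT, at 0.30 and Cd200r1, an inhibitory receptor of myeloid cells, at 0.29. Septic TLR-deficient minus untreated had 12 higher and 19 lower with a median of -0.03, from Ptpn6 at -0.53 and Lgals9 at -0.50 to Cd244a at 0.46 and Tnfrsf9 at 0.59. Tnfrsf9 stood at 8.77 to 10.02 on M5 to M7 with M16, 6.81 to 7.69 on M12 to M15 and 6.20 to 6.98 on M8 to M11. Pvr, the TIGIT ligand, was at 5.50 to 6.41 on M8 to M11 and at 6.84 or more on the other arrays. Tnfrsf14, the BTLA ligand, overlapped between the sets, at 7.98 to 8.57, 7.29 to 8.18 and 8.16 to 8.55 in order of title number from M5.

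The list of interferon-gamma signalling genes gave 8 measured members. All 8 had higher means on the septic TLR-deficient than on the septic wildtype label, with a median of 0.43. All 8 were lower on septic wildtype than untreated arrays, with a median of -0.57. Averaged over the list, log2 deviations from each gene's mean over the 12 arrays stood at -1.68 on septic wildtype replicate 2. On the other septic wildtype arrays they lay at -0.06 to 0.05, inside the -0.16 to 0.44 of the septic TLR-deficient arrays. On untreated arrays they lay at 0.11 to 0.47. None of the 8 genes passed in limma in any of the 3 comparisons. An unadjusted p under 0.05 was found for 1 between the septic groups (12.5%, against 6.65% of all genes). For septic wildtype against untreated there were 2 (25%, against 8.81%), and for septic TLR-deficient against untreated 0 (against 1.88%). Jak2, the kinase that carries the interferon-gamma signal, differed by 1.46 and -1.55. Its standard deviation was 2.10 on septic wildtype arrays, against 0.34 on septic TLR-deficient and 0.43 on untreated arrays. Jak2 stood at 9.52 to 10.13 on M5 to M7 with M16, 9.10 to 9.52 on M12 to M15 and 4.84 to 9.03 on M8 to M11. Stat3 differed by 0.92 and -1.22, and the smallest differences were 0.01 for Irf2 and 0.19 for Ifngr2 between the septic groups. Against untreated arrays septic wildtype differed least for Ifngr2 (-0.26) and Ifng (-0.38). Septic TLR-deficient minus untreated ranged from Irf1 at -0.70 and Irf2 at -0.56 to Ifngr2 at -0.07 and Ifngr1 at 0.03. Irf1, the transcription factor that acts on the Cd274 promoter, lay at 8.70 to 9.97 on M5 to M7 with M16, 7.43 to 9.28 on M8 to M11 and 9.74 to 10.44 on M12 to M15. Ifng itself lay at 4.94 to 6.23, 4.88 to 5.61 and 4.83 to 5.89 on the same sets, which overlapped.

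Genes of T cell exhaustion and activation gave 14 measured members. Between the septic groups 8 were higher and 6 lower (median 0.40), and 11 of 14 were lower on septic wildtype than untreated arrays (median -0.70). Septic TLR-deficient minus untreated had 4 higher and 10 lower (median -0.29), from Nr4a3 at -0.79 and Il2ra at -0.77 to Batf at 0.14 and Nt5e at 0.17. None passed in limma, and 3, 6 and 2 had an unadjusted p under 0.05 in that order of comparisons (21.4%, 42.9% and 14.3%). The shares over all genes were 6.65%, 8.81% and 1.88%. The mean deviation of the list was -0.85 on septic wildtype replicate 2 and -0.31 to 0.02 on the other septic wildtype arrays. Cd69, an early activation marker of lymphocytes, differed by 1.69 and -1.80 in the first 2 comparisons. Its standard deviation was 1.82 on septic wildtype arrays, against 1.02 on septic TLR-deficient and 0.92 on untreated arrays. Prdm1, a factor of plasma cells and exhausted T cells, differed by 1.07 between the septic groups, and Eomes and Tbx21, factors of cytotoxic lymphocytes, by -0.70 and -0.30. Il2ra, the high-affinity chain of the interleukin-2 receptor, differed by -1.44 for septic wildtype minus untreated, and the 2 highest there were Nr4a2 at 0.14 and Il2 at 0.07. Cd69 lay at 8.53 to 10.14 on M5 to M7 with M16, 7.95 to 9.35 on M12 to M15 and 4.90 to 7.66 on M8 to M11.

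Markers of the cells that carry these receptors and ligands differed between the sets for some cell types and overlapped for others. In bulk tissue, fewer cells of a type and less RNA per cell cannot be told apart. Each gene of a list was centred on its average over the 12 arrays, and the level of the list is the mean of these log2 deviations. T cell markers (7 of 8 measured) lay between -0.63 and -0.37 on M5 to M7 with M16, where Pdcd1 and Ctla4 were high. They lay between -0.63 and 0.68 on M8 to M11 (0.53 to 0.68 without septic wildtype replicate 2) and between -0.17 and 0.67 on M12 to M15. Cd8a, the co-receptor of cytotoxic T cells, was at 7.47 to 8.29 on M5 to M7 with M16 and at 8.57 or more on all others. Regulatory T cell markers (3 of 3), of the cells that hold much of the CTLA-4 at rest, lay at -0.41 to 0.49, -0.49 to -0.12 and -0.08 to 0.33 in order of title number from M5, and Foxp3 at 6.22 to 6.51, 5.88 to 7.39 and 6.15 to 6.66. The Foxp3 value of 7.39 came from septic wildtype replicate 2. Without that array the list lay at -0.49 to -0.21 on M8 to M11. The 3 genes did not move together. With all arrays, medians of the sets in the same order were 7.27, 5.26 and 6.82 for Il2ra, which is also in the activation list. For Ikzf2 they were 6.06, 6.48 and 6.28, highest on M8 to M11, and for Foxp3 6.40, 6.15 and 6.36. NK cell markers (4 of 4) lay at -0.99 to -0.68 on M5 to M7 with M16 and at -0.21 or more on the others.

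Dendritic cell markers (8 of 8), of cells that carry Cd80, Cd86 and both PD-1 ligands, lay at -0.80 to -0.60 on M5 to M7 with M16 and at 0.19 to 0.67 on M12 to M15. On M8 to M11 they lay at 0.47 to 0.76 without septic wildtype replicate 2, which stood at -0.66. Within this list Clec9a, of the dendritic cells that take up dead cells, was at 3.98 to 4.51 on M5 to M7 with M16 against 5.55 or more elsewhere. Ccr7, the receptor that mature dendritic cells and T cells follow, ran opposite at 9.39 to 10.83 against 9.17 or less. B cell markers (7 of 8) were at -1.15 to -0.77 on M5 to M7 with M16, and 0.37 to 0.70 on M12 to M15. On M8 to M11 they were at 0.74 to 1.10 without septic wildtype replicate 2, which stood at -0.90. Macrophage and monocyte markers (7 of 8) were at -0.12 to 0.28 on M5 to M7 with M16, -0.22 to 0.24 on M12 to M15 and 0.08 to 0.39 on M8 to M11 without septic wildtype replicate 2, which stood at -1.11. Members of this list ran in opposite directions. On M5 to M7 with M16, Cd14 was at 9.65 to 11.26 against 8.41 or less elsewhere, and Ccr2 at 4.57 to 5.03 against 5.78 or more. Adgre1 was at 5.46 to 6.02 on M12 to M15 against 6.92 or more elsewhere. No other member stood apart on a whole set. Neutrophil markers (7 of 7) were at 0.69 to 1.72 on M12 to M15 and at -0.17 or less on the other 8 arrays.

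By label the lists overlapped for T, dendritic and B cells. T cell markers lay at -0.50 to 0.53 on septic TLR-deficient, -0.63 to 0.68 on septic wildtype and -0.63 to 0.67 on untreated arrays. Dendritic cell markers lay at -0.80 to 0.76, -0.66 to 0.74 and -0.60 to 0.67 in the same order, and B cell markers at -1.15 to 0.94, -0.90 to 1.10 and -0.98 to 0.70. Erythroid markers (4 of 6) lay at 0.11 to 0.70, -1.17 to 0.57 and -0.95 to 0.02. Plasma cell markers (5 of 5) lay at -0.05 to 0.47, -0.80 to -0.06 and -0.28 to 0.60, and stroma and endothelium markers (6 of 7) at -0.09 to 0.30, -0.91 to 0.10 and 0.13 to 0.26. The label ranges did not overlap for erythroid markers between septic TLR-deficient and untreated, for plasma cell markers between the septic groups, or for stroma and endothelium markers between septic wildtype and untreated. The part of cell numbers, of the low array M10 and of Xist and Eif2s3y in the checkpoint values was not tested.

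**Figure D4:**
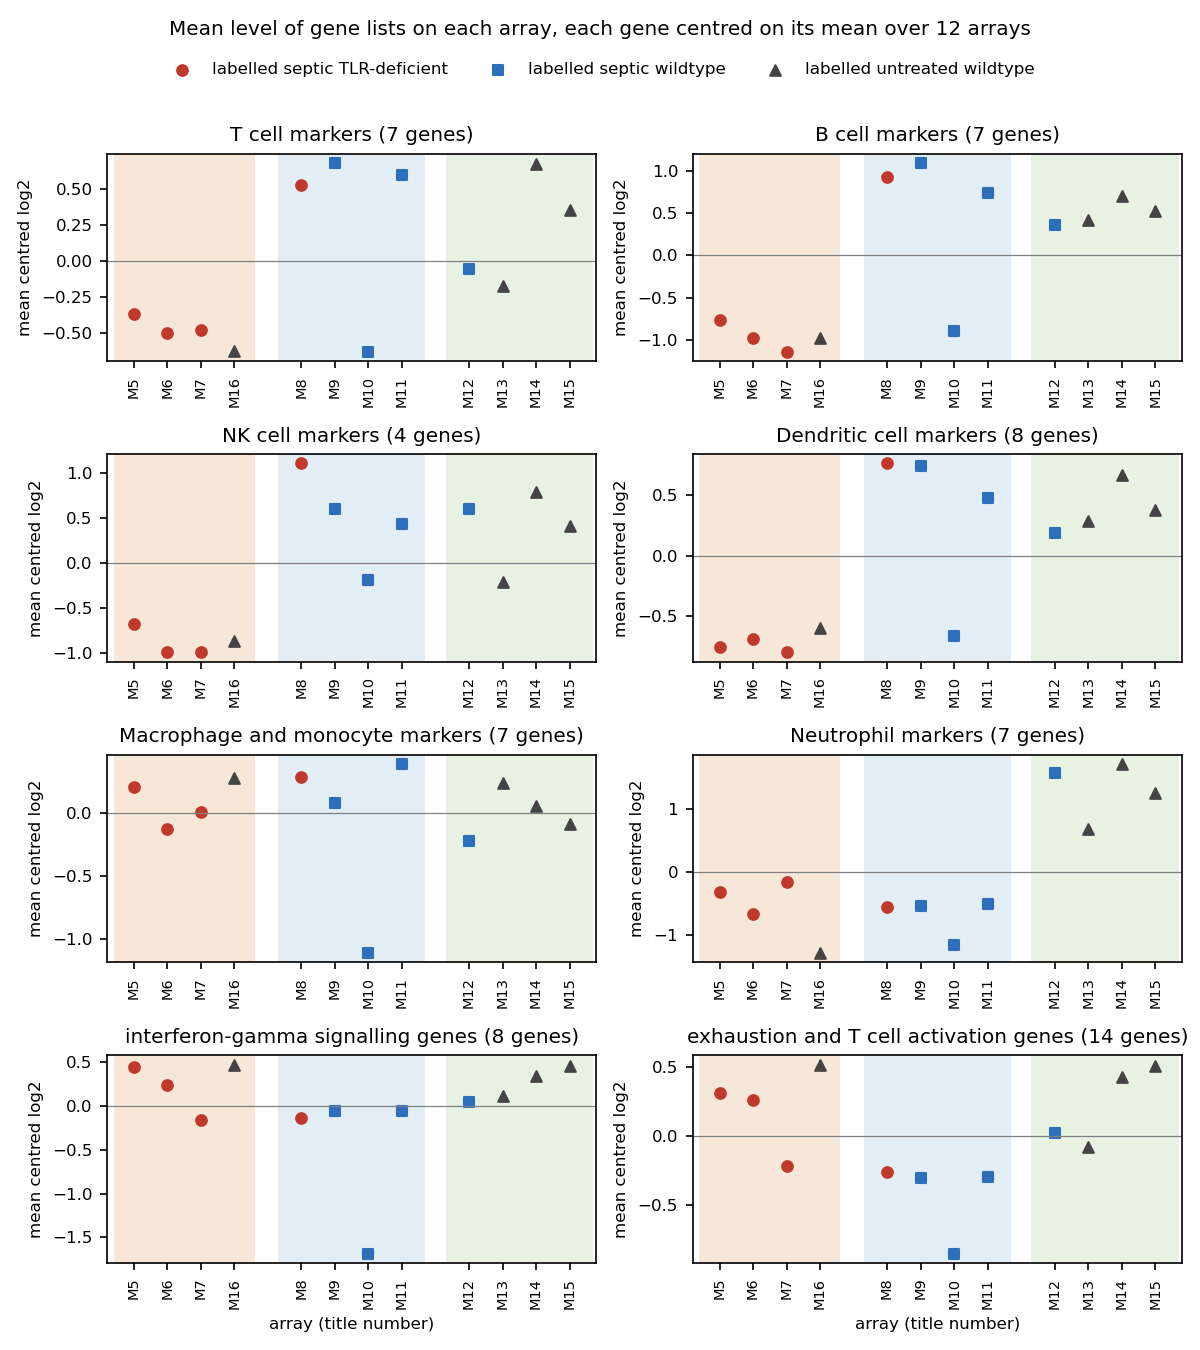
Mean centred log2 level of 8 gene lists on each array (vertical axis, each panel with its own scale), by title number, with colour and marker for the label and shading for the title-number sets. T, B, NK and dendritic cell markers lay below 0 on M5 to M7 and M16 and also on M10, and neutrophil markers at 0.69 or more on M12 to M15. T cell markers were below 0 on M12 and M13 too, and NK cell markers on M13.

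Genes outside the members whose pattern over the 12 arrays was most like each member were found by the root mean square difference of centred log2 values among 4569 genes spanning at least 2. Lag3 and Tigit spanned less than 2 and were left out. Pdcd1lg2, Cd80, Cd86 and Btla reached a span of 2 only through septic wildtype replicate 2. On the other 11 arrays Pdcd1lg2 lay at 5.85 to 7.13 and Cd80 at 6.43 to 8.37. On these 11, Cd86 lay at 8.70 to 9.89 and Btla at 9.19 to 10.07. Cd274 was nearest to Nfkbiz, an atypical IkappaB protein, at 0.30, then Lilrb4a, an inhibitory receptor of myeloid cells, at 0.32 and Alpl at 0.34. Ctla4 was nearest to Tnfrsf9 at 0.28, the metallothionein Mt1 at 0.34 and the NF-kappaB brake Tnfaip3 at 0.35, and these ranked 1, 2 and 3 over 11 arrays without septic wildtype replicate 2 too. Without that array the 3 genes nearest to Cd274 ranked 4, 6 and 11, those of Pdcd1 4, 13 and 20, those of Cd80 1, 3 and 14, those of Havcr2 2, 9 and 10 and those of Btla 2, 13 and 14. The 3 of Pdcd1lg2 and the 3 of Cd86 kept the first 3 ranks in another order. Pdcd1 was nearest to the neuropeptide gene Npy (0.27), Rnf180 (0.32) and Gm13889 (0.32). Cd80 was nearest to Gpr171 (0.24), Pde3b (0.25) and Birc3 (0.28). Havcr2 was nearest to Stap1 (0.30), Bex6 (0.32) and Il9r (0.34). The nearest genes were Ly75, Pik3ap1 and D16Ertd472e (0.19 to 0.21) for Pdcd1lg2, Map2k4, Gm340 and Lpxn (all 0.14) for Cd86, and Gpatch2l, Oga and Stx17 (0.16 to 0.20) for Btla. Among the members, Pdcd1lg2 and Cd86 were most alike at 0.25. Cd274 and Ctla4 were 0.53 apart. All points share the same 12 arrays, so likeness says nothing of shared control.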

How the data were processed

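Per the labels, total RNA from spleen was amplified and biotin-labelled with Affymetrix whole-transcript kits. The deposited log2 values per probe set come from RMA as run in Affymetrix Expression Console, per the submitters' processing notes, with versions and genome build not given in the sources used here. They lie between 1.33 and 13.79. Of 35557 probe sets, 21789 carry 1 symbol, 1621 several and 12147 none. Symbols were updated by gene identifier for 21698, and the probe set with the highest mean stood for each of 19938 genes, with no filter on low values. The comparisons were fitted with limma 3.58.1 in R 4.3.3, with 1 mean per labelled group over 12 arrays, moderated two-sided tests, and p-values adjusted over all genes by Benjamini and Hochberg's method at a threshold of 0.05. The number of arrays limits the precision. The fit was tested on simulated data. Members, lists and title-number sets were chosen with earlier results of these data known. All 10 members are named, with the 2 largest differences in each direction of each other list and the 3 most alike genes of members spanning at least 2, and Pvr, Tnfrsf14 and single marker genes were named after their values were seen. Alternatives covered normalization, filters, probe sets, variance settings, array weights, a replicate block and left-out arrays. Figures used matplotlib 3.10.9.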

Additional observations from a re-analysis of the deposited data

Results flagged for a closer look

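In 3 of the 30 sets of 4 arrays formed by the 10 members and 3 labels, 1 array stood apart from the other 3 by more than Dixon's critical share of the range. Chance gives about 1 in 20. Pdcd1 on septic TLR-deficient replicate 4 was at 5.55 and on the other 3 at 6.81 to 6.98. Havcr2 on the same array was at 7.77 and on the other 3 at 5.48 to 5.82. Ctla4 on untreated replicate 4 was at 8.95 and on the other 3 at 6.57 to 6.82.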

How the results depend on the processing

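No member passed the threshold under any setting of normalization, filter, probe set, variance or array weight tried, or with the replicate block, and leaving out each array in turn gave 0 members and 0 genes in each comparison. Array weights called 1 gene for septic wildtype minus untreated, and gave 4 members an unadjusted p under 0.05 in septic TLR-deficient minus untreated, as 14.4% of all genes had. A further quantile normalization left 0 such members in septic wildtype minus untreated (4.83% of all genes). With replicates 1 to 3 only, chosen after seeing the data, 9 genes and 0 members passed for septic wildtype minus untreated, 141 and 3 between the septic groups, and 33 and 1 for septic TLR-deficient minus untreated. Without septic wildtype replicate 2 as well, these were 19 genes and 0 members, 1002 and 4, and 675 and 3. Both leave out arrays that stood apart from their label, and so favour calls.

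No pairing of the arrays by replicate number was seen. Of 12 same-numbered pairs 3 had deviations correlated over 0.1 (range -0.535 to 0.144), and 0 of 12 arrays correlated best with their own number. The deviations were taken from labelled group means, which arrays lying with another label's arrays shift, so a pairing could be hidden. With the replicate block 0 members and 0 genes passed in each comparison.

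Of 690 alternative values of the 30 member differences, 16 changed sign with 1 array left out, 6 under another of these settings and 6 under those chosen after seeing the data, and the cause was not tested. A further quantile normalization gave 0.064 for Btla in septic wildtype minus untreated, and 0.070 for Btla and 0.017 for Pdcd1lg2 in septic TLR-deficient minus untreated. Array weights gave 0.31, -0.25 and 0.060 for Btla in septic wildtype minus untreated, between the septic groups and in septic TLR-deficient minus untreated. With replicates 1 to 3 only, Pdcd1 was 0.12 in septic wildtype minus untreated and Pdcd1lg2 0.14 in septic TLR-deficient minus untreated. Without septic wildtype replicate 2 as well these were 0.054 and 0.14, and Btla was 0.12 in septic wildtype minus untreated and -0.16 between the septic groups. Leaving out 1 array moved Pdcd1 between -0.69 and 0.019 and Btla between -0.64 and 0.20 in septic wildtype minus untreated, and Btla between -0.23 and 0.61 between the septic groups. In septic TLR-deficient minus untreated the ranges were -0.13 to 0.60 for Cd274, -0.28 to 0.18 for Pdcd1lg2, -0.080 to 0.31 for Cd86, -0.22 to 0.30 for Tigit and -0.17 to 0.12 for Btla. All 10 members passed both filters on dim genes.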
